A study of Mus musculus with 12 samples.

Results

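The 6 cytosolic sulfotransferase genes Sult1a1, Sult1b1, Sult1c2, Sult1d1, Sult1e1 and Sult5a1 were followed in mouse liver across both sexes of a Cyp2e1 knockout line and a wild type line. They were chosen by symbol, as Sult1 and Sult5 genes that act mainly on phenols and estrogens. Sult1c1 was listed with the other cytosolic sulfotransferases and is not among the 6. All 6 are among the 56748 genes listed, and all 6 had enough counts to be among the 14003 genes tested. Poly(A) RNA of whole liver was sequenced from 16-week-old mice kept on normal chow in co-housed cages. The wild type was 129S1/SvImJ and the knockout was 129/Sv-Cyp2e1tm1Gonz/J, which carries a targeted allele of Cyp2e1, a cytochrome P450 that oxidises ethanol and other small molecules. Both sexes of both lines gave 4 groups with 3 biological replicates each, 12 libraries in all. The lines differ by name as well as by the allele, so an effect of the allele and a difference between lines cannot be told apart. In whole tissue, fewer cells of a type and less RNA per cell cannot be told apart either.

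Cytosolic sulfotransferases move a sulfonate group from the cofactor PAPS (3'-phosphoadenosine 5'-phosphosulfate) onto hydroxyl or amine groups of small molecules. The product is more water-soluble, is usually less active, and leaves the hepatocyte through membrane transporters into bile or blood. In liver this reaction clears phenolic drugs, steroid and thyroid hormones and catecholamines, and it can also turn some carcinogens into reactive esters. Sult1a1 is the main phenol sulfotransferase, Sult1b1 acts on thyroid hormones and small phenols, and Sult1c2 belongs to the same phenol family. Sult1d1 acts on catecholamines such as dopamine and has only a pseudogene as its human counterpart. Sult1e1 is the estrogen sulfotransferase, and Sult5a1 is a more distant relative whose substrates are little known.

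Each of the 6 enzymes binds PAPS through a loop near its N-terminus, and the 27 coding bases of that loop can be compared between the genes. They are shown because reads can be shared between genes where the bases are alike. The loop was located by a script in the longest open reading frame of each gene's transcripts (GENCODE, release M21), and capitals mark bases that differ from Sult1a1.
Sult1a1: acgtacccaaagtctggtactacctgg
Sult1b1: acTtacccTaaAtcAggtactacTtgg
Sult1c2: acTtacccTaaAtcAggGacAacAtgg
Sult1d1: acAtaTccCaaAtctggAacAacTtgg
Sult1e1: acAtaTccTaaAtctggtacCacctgg
Sult5a1: acAtTTccCaagtcAggtacCacctgg
Between 5 and 7 of the 27 bases differed from Sult1a1 in the other 5 genes. Over the whole reading frames, the 15 pairs of genes were identical at 49.4% to 63.2% of aligned bases. The longest stretch shared exactly by any pair was 10 to 20 bases.

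Sult1b1, Sult1d1 and Sult1e1 lie side by side on chromosome 5, all on the minus strand. In mm39 coordinates, Sult1b1 (ENSMUSG00000029269) spans 87661198 to 87686054, Sult1d1 (ENSMUSG00000029273) 87702504 to 87716886, and Sult1e1 (ENSMUSG00000029272) 87723828 to 87739453. The gaps between them are 16.4 and 6.94 kb, and the cluster spans 78.3 kb. The other 3 genes each lie on a different chromosome. Sult1a1 (ENSMUSG00000030711) is on chromosome 7 at 126272037 to 126275604, 14.1 Mb from Cyp2e1 on the same chromosome. Sult1c2 (ENSMUSG00000023122) is on chromosome 17 at 54136665 to 54153367, and Sult5a1 (ENSMUSG00000000739) on chromosome 8 at 123866931 to 123885054.

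The 250 bases before the start sites of the cluster genes and of Sult1a1 follow, since these 4 genes were lower in knockout females. They come from RefSeq on GRCm38.p6, which is not the build of the count table, and are written 5′ to 3′ on the minus strand, the coding strand. Capitals mark matches to 6 motifs searched on both strands: TTCNNNGAA (the STAT palindrome), ATCGAT (the CUX and HNF6 core), AGGTCA (a nuclear receptor half-site), GTTAAT (an HNF1 half-site), TGTTTAC (FOXA) and TATAAA (the TATA box). No match overlapped another.
Sult1b1 chr5:87538196-87538445: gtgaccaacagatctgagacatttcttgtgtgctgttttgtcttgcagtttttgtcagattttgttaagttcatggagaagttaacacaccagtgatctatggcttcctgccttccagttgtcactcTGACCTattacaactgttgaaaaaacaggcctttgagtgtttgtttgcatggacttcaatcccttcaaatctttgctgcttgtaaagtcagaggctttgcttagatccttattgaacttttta
Sult1d1 chr5:87569007-87569256: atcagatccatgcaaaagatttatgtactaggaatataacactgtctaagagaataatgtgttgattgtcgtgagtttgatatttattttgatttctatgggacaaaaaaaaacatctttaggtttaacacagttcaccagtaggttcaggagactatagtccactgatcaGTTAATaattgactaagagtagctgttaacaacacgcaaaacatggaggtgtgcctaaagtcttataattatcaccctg
Sult1e1 chr5:87591612-87591861: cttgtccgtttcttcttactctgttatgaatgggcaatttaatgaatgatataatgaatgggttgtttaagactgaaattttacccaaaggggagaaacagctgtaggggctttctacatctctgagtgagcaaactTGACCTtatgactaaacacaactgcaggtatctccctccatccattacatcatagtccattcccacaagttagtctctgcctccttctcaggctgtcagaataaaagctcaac
Sult1a1 chr7:126676419-126676668: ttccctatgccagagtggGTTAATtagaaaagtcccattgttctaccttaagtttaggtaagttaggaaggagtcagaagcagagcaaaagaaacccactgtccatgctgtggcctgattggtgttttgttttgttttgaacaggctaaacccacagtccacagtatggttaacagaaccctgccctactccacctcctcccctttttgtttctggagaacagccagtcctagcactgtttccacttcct
GTTAAT was found in the window of Sult1a1, starting 232 bases upstream, and in that of Sult1d1, starting 79 bases upstream. AGGTCA was found, on the opposite strand, in the windows of Sult1b1 (123 bases upstream) and Sult1e1 (113 bases upstream). RefSeq gives Sult1b1 a further start site, whose window holds none of the 6 motifs. Of 32851 RefSeq windows of this length, 6.43% hold GTTAAT and 14.0% hold AGGTCA. The letters of the STAT, CUX, FOXA and TATA motifs are in none of the 4 windows, and of all windows 7.02%, 0.728%, 3.17% and 12.4% hold them. The windows of Sult1c2 and Sult5a1 hold none of the 6 motifs.

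Total counts per library ran from 15167730 to 25082532. Cyp2e1 was lower in every knockout library (230 to 403 CPM, counts scaled to a common library size) than in every wild type library (6213 to 11480 CPM). The libraries also differed in how a gene's level moved with its length. This length slope, the change in log2 level when gene length doubles, ran from -0.23 to -0.14 in wild type females and from 0.08 to 0.29 in knockout females, with no overlap. In males it ran from -0.16 to 0.11 in wild type and from -0.17 to 0.17 in knockout libraries. The slope therefore separates the female groups but not the male groups.

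By group mean per kilobase of gene length, Sult1a1 was the most abundant of the 6 genes in every group, followed by Sult1d1 and Sult1b1. Single libraries could differ. Sult1d1 (142 CPM per kb) stood above Sult1a1 (117) in wild type male replicate 3, and Sult5a1 (15.3) above Sult1b1 (13.8) in replicate 2. In wild type females Sult1a1 stood at 453 ± 34.3 CPM per kb (SD, n = 3), Sult1d1 at 221 ± 37.7 and Sult1b1 at 22.3 ± 4.64. The estrogen sulfotransferase Sult1e1 stood at 9.00 ± 3.40 CPM per kb in the same group and had the lowest mean of the 6 in the other 3 groups. Summed over the 6 genes, the level ran from 664 to 789 CPM per kb in wild type females, from 347 to 435 in knockout females, from 247 to 301 in wild type males and from 234 to 326 in knockout males. Wild type females thus had the highest sum, and the male groups overlapped. Sult1a1 made up 62.8% ± 3.46 of the sum in wild type females and 77.9% ± 1.24 in knockout females, while Sult1d1 made up 30.5% ± 3.14 and 14.6% ± 1.41.

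**Figure D1:**
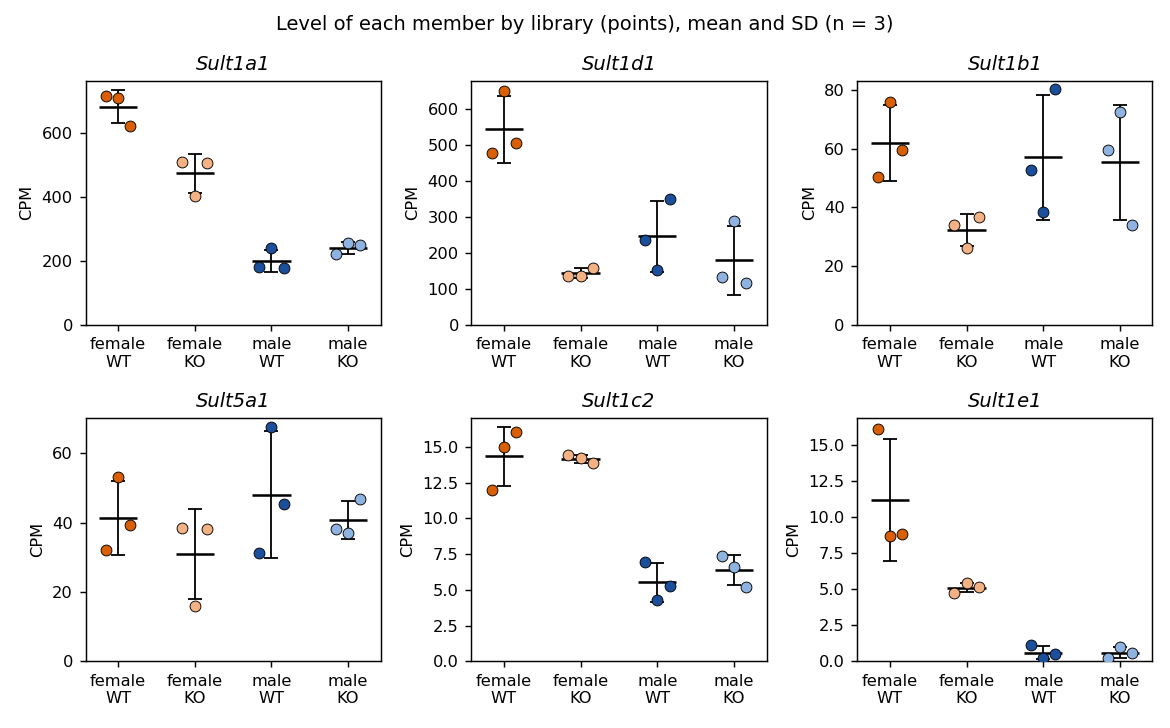
Level of each gene in CPM, counts scaled to a common library size (vertical axis, from 0, own scale per gene), by group (horizontal axis). Points are libraries, the long bar is the mean and the whiskers are the SD of 3 libraries. Sult1a1, Sult1c2 and Sult1e1 are higher in all female libraries than in all male libraries, and Sult1d1 is highest in the 3 wild type female libraries, at 476 to 649 CPM.

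The comparison of the sexes asked which of the 6 genes differ between male and female liver within each line. Sult1a1, Sult1c2 and Sult1e1 were lower in males than in females in both lines, and no member was higher in males by the test. That is 3 of 6 members, where 4.49% of all tested genes were called in wild type and 5.4% in knockout mice (2.39% and 2.45% lower in males). Each of these 3 genes had every male library below every female library in both lines, as had 13.5% of all tested genes in wild type and 14.2% in knockout mice. All 6 calls held under each of the 20 alternative settings run.

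Sult1e1, which inactivates estrogens by sulfonation, had the largest sex difference of the 6. Wild type females had 16.1, 8.67 and 8.81 CPM, knockout females 4.76, 5.42 and 5.13 CPM. Wild type males had 1.12, 0.224 and 0.496 CPM and knockout males 0.270, 1.01 and 0.559 CPM. Male levels rested on few reads, 24, 4 and 8 counts in the wild type and 5, 14 and 12 in the knockout libraries, against 107 to 340 counts in the female libraries. The male to female log2 fold change was -4.13 ± 0.49 (SE) in wild type mice (adjusted p = 0.000147), or 17.6-fold lower. In knockout mice it was -3.10 ± 0.49 (adjusted p = 0.00186), or 8.55-fold lower.

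Sult1a1, the main phenol sulfotransferase, had 714, 710 and 622 CPM in wild type females and 509, 403 and 507 CPM in knockout females. Wild type males had 181, 240 and 176 CPM, and knockout males 220, 255 and 249 CPM. Both female groups lay wholly above both male groups. Males were lower by a log2 fold change of -1.78 ± 0.18 in wild type mice (adjusted p = 3.13e-05, 3.43-fold) and of -0.97 ± 0.18 in knockout mice (adjusted p = 0.00533, 1.96-fold).

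Sult1c2, of the phenol family, had 12.0, 15.0 and 16.0 CPM in wild type females and 14.4, 14.2 and 13.9 CPM in knockout females. Wild type males had 6.98, 4.30 and 5.27 CPM, and knockout males 7.34, 6.59 and 5.22 CPM. The levels fall into a female and a male range that do not meet, and the lines overlap within each sex. The male to female log2 fold change was -1.37 ± 0.22 in wild type mice (adjusted p = 0.00193) and -1.15 ± 0.22 in knockout mice (adjusted p = 0.0067).

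The other 3 genes were not called between the sexes in either line. Sult1d1 came nearest in wild type mice, where every male library (236, 152 and 349 CPM) lay below every female library (476, 649 and 504 CPM), with a log2 fold change of -1.14 ± 0.34 (adjusted p = 0.0849). DESeq2's Wald test and the fit without a filter on low counts called it (-1.14 and -1.12). So did the fits without male wild type replicate 3 (-1.48) and without male knockout replicate 2 (-1.14). The other 16 of the 20 alternatives did not call it, and with the length slope as covariate it was -0.62 (adjusted p = 0.0771). In knockout mice Sult1d1 overlapped between the sexes and had a log2 fold change of 0.32 ± 0.34 (95% interval -0.41 to 1.05), which turned to -0.39 with the slope as covariate. Sult1b1 had a log2 fold change of -0.12 ± 0.30 in wild type and 0.77 ± 0.31 in knockout mice (adjusted p = 0.84 and 0.164), and the fit without a filter on low counts called the latter (0.79). With the slope as covariate Sult1b1 had 0.35 and 0.24 (adjusted p = 0.372 and 0.501). Sult5a1 had 0.21 ± 0.34 in wild type and 0.40 ± 0.34 in knockout mice (adjusted p = 0.718 and 0.49).

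**Figure D2:**
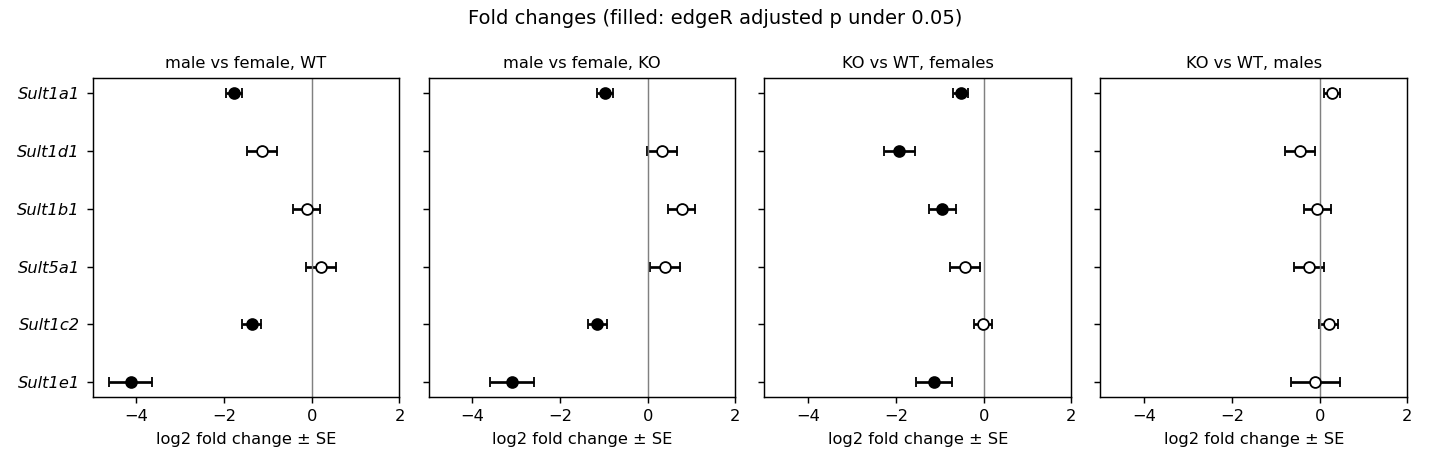
Log2 fold change of each gene (horizontal axis) with its standard error, for males over females within each line and knockout over wild type within each sex. Filled points have an edgeR adjusted p under 0.05. Sult1a1, Sult1c2 and Sult1e1 are filled left of 0 in both sex panels, 4 genes are filled in the female knockout panel, and none in the male one.

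In females the comparison of knockout with wild type asked whether the line without Cyp2e1 differs in these enzymes. Sult1d1, Sult1e1, Sult1b1 and Sult1a1 were lower in knockout females, and Sult1c2 and Sult5a1 did not pass the test. That is 4 of 6 members, all lower, where 36.5% of all tested genes were called (18.8% lower). Every knockout library lay below every wild type library for the same 4 genes, as it did for 27.1% of all tested genes. The median log2 fold change was -0.73 over the 6 genes and 0.05 over all genes tested. When the length slope of the libraries was a covariate 0 of the 6 were called, with 10 of all 14003 tested genes called. Since the slope separates the female groups, fits with it as covariate, here and below, can hardly tell slope and line apart in females. Calls lost and signs changed in these fits were not traced to a cause. With the length trend removed from each library 1 of the 6 was called, with 4264 of all tested genes called. Leaving out replicate 2 of either line gave a count of 0, with 5 (wild type) and 4 (knockout) of all genes called. Leaving out replicate 1 of either line gave 2, with 3956 (wild type) and 4227 (knockout) of all genes called. Leaving out replicate 3 of either line gave 1, with 2927 (wild type) and 2909 (knockout) of all genes called.

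Sult1d1, the catecholamine sulfotransferase, had the largest change of the 6. It stood at 476, 649 and 504 CPM in wild type females and at 137, 135 and 158 CPM in knockout females. Its mean fell from 543 ± 92.6 to 143 ± 13.0 CPM, a log2 fold change of -1.92 ± 0.35 (adjusted p = 0.0132), or 3.79-fold. The change was called in 10 of 12 fits that each left out 1 library, and leaving out replicate 2 gave -1.78 (wild type, adjusted p = 0.0554) and -1.88 (knockout, adjusted p = 0.061). With the length trend removed it was -1.62 and still called, and with the length slope as covariate it was -0.54 (adjusted p = 0.576).

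Sult1b1, 16.4 kb away, had 50.3, 75.8 and 59.6 CPM in wild type females and 34.0, 26.0 and 36.8 CPM in knockout females. Its log2 fold change was -0.94 ± 0.31 (adjusted p = 0.0314), or 1.92-fold lower. It turned to 0.24 (adjusted p = 0.84) with the length slope as covariate, and was -0.73 (adjusted p = 0.0558) with the length trend removed. The call ended when any female library except wild type replicate 1 was left out, with values of -1.05 to -0.77.

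Sult1e1, on the other side of Sult1d1, had a log2 fold change of -1.13 ± 0.40 (adjusted p = 0.0423), or 2.20-fold lower, on the CPM values given above. Wild type replicate 1 was the highest library at 16.1 CPM, and without it the log2 fold change was -0.78. The call ended when any 1 of the 6 female libraries was left out, with values of -1.29 to -0.78. It was -0.81 (adjusted p = 0.769) with the length slope as covariate and -0.36 (adjusted p = 0.484) with the length trend removed. Sult1a1 had a log2 fold change of -0.53 ± 0.18 (adjusted p = 0.0332), or 1.44-fold lower. The call ended when any female library except knockout replicate 1 was left out, with values of -0.59 to -0.42, and also in the fit without a filter on low counts (-0.52, adjusted p = 0.102). It was -0.57 (adjusted p = 0.459) with the length slope as covariate and turned to 0.11 (adjusted p = 0.709) with the length trend removed.

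Sult1c2 had a log2 fold change of -0.02 ± 0.21 (95% interval -0.47 to 0.44, adjusted p = 0.957) between the female groups. Sult5a1 had 32.0, 53.1 and 39.4 CPM in wild type and 38.5, 15.9 and 38.2 CPM in knockout females, a log2 fold change of -0.42 ± 0.34 (95% interval -1.15 to 0.30, adjusted p = 0.331). For Sult5a1 knockout replicate 2 was the one low library, and the groups overlapped.

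Sult1d1 and Sult1b1 also moved with the length slope over the 12 libraries. Of 6 relations tested, one for each gene, the log2 level of Sult1d1 had Pearson's r = -0.92 (two-sided permutation p = 8e-05, adjusted over the 6 relations 0.00048) and Spearman's rho = -0.83 (permutation p = 0.00166, adjusted 0.00498). Sult1b1 had r = -0.89 (permutation p = 0.00037, adjusted 0.00111) and rho = -0.87 (permutation p = 0.00047, adjusted 0.00282). Without the 2 libraries farthest from the median slope, replicate 2 of each female group, r was -0.93 for Sult1d1 and -0.81 for Sult1b1. The deviations of the libraries from their group means gave r of -0.89 and -0.87. The slope is drawn from the same libraries, so these values share their source with the levels. The permutations ran over all 12 libraries regardless of group, so their p-values include differences between groups. The deviations from group means were not tested. For Sult1a1, Sult1c2, Sult1e1 and Sult5a1, r was -0.19, -0.07, -0.23 and -0.33, with adjusted permutation p of 0.615 to 0.816 (0.499 for each by Spearman's rho). Without those 2 libraries r was -0.11, -0.13, -0.31 and 0.36. A negative r means a lower level in libraries where longer genes read higher. The gene lengths are 2459 bases for Sult1d1 and 2780 for Sult1b1. They are 4419 for Sult5a1, 1846 for Sult1c2, 1507 for Sult1a1 and 1242 for Sult1e1, so r did not follow length among the 6. Why 2 of the genes moved with the slope was not tested.

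Within groups Sult1d1 and Sult1b1 ranked the 3 libraries in the same order in 4 of 4 groups. In 3 of the 4, all but knockout females, Sult1d1 fell in the order in which the slope rose. Among males the highest Sult1d1 levels, 349 CPM in wild type replicate 3 and 289 CPM in knockout replicate 2, were in the libraries with the lowest slopes, -0.16 and -0.17. Sult1e1 shared the order of Sult1d1 in 0 of 4 groups.

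**Figure D3:**
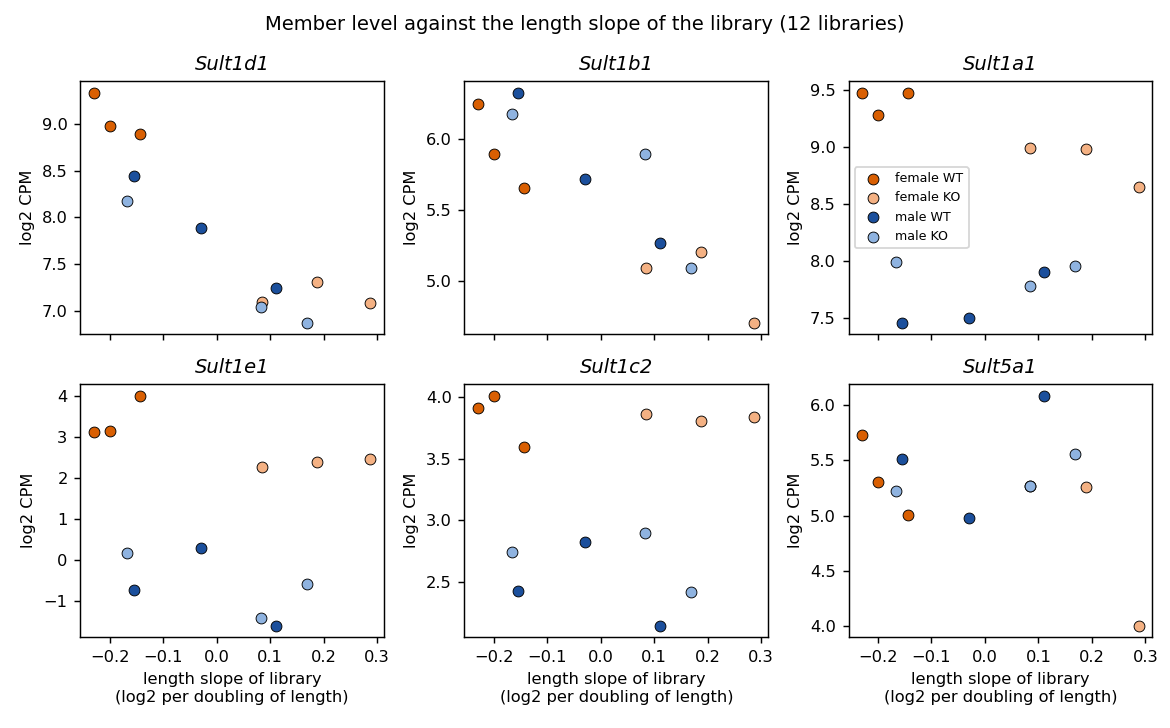
Level of each gene in log2 CPM (vertical axis) against the length slope of its library (horizontal axis, change in log2 level when gene length doubles), 12 libraries coloured by group. Sult1d1 and Sult1b1 fall along the slope in both sexes (r = -0.92 and -0.89), while Sult1e1 and Sult1c2 lie in a female and a male band.

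In males none of the 6 genes was called between knockout and wild type. By edgeR 0 of 6 passed, also at an unadjusted p under 0.05, and DESeq2 called 0. Of all genes tested, 0.0571% were called and 4.84% had an unadjusted p under 0.05. Sult1d1 had 236, 152 and 349 CPM in wild type and 132, 289 and 117 CPM in knockout males, a log2 fold change of -0.45 ± 0.34 (95% interval -1.19 to 0.28). Sult1b1 had 52.6, 38.4 and 80.3 CPM in wild type and 59.5, 72.3 and 34.0 CPM in knockout males, a log2 fold change of -0.05 ± 0.30 (95% interval -0.70 to 0.61). Both genes ranged widely within each male group. Sult1a1 had a log2 fold change of 0.28 ± 0.18 (95% interval -0.10 to 0.66) and Sult1c2 of 0.20 ± 0.22 (95% interval -0.27 to 0.68). Sult5a1, at 31.3, 67.7 and 45.4 CPM in wild type and 38.3, 37.1 and 46.9 CPM in knockout males, had -0.24 ± 0.34 (95% interval -0.96 to 0.49). For Sult1e1, with 4 to 24 counts per male library, the value was -0.10 ± 0.56 (95% interval -1.31 to 1.11). The adjusted p was 1 for each of the 6, and the male groups overlapped for each, while they did not for 9.62% of all genes tested.

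As the mean of both sexes, Sult1d1 was the 1 member called, at -1.19 ± 0.24 (adjusted p = 0.0263), where 15.1% of all tested genes were called. It was not called with the length slope as covariate (-0.42). The call also ended when wild type female replicate 1 or 2, knockout female replicate 2, or male replicate 1 or 3 of either line was left out, with values of -1.23 to -1.02. Sult1e1 had -0.62 ± 0.35 (adjusted p = 0.198) and Sult1b1 -0.49 ± 0.22 (adjusted p = 0.108), and the fit without a filter on low counts called Sult1b1.

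The difference of the knockout effect between the sexes was tested directly, since a call in females and none in males does not show one. By edgeR 0 of 6 members passed, and 0% of all tested genes did. At an unadjusted p under 0.05 there were 2 members, Sult1a1 (male minus female effect 0.81 ± 0.25, adjusted p = 0.204) and Sult1d1 (1.47 ± 0.48, adjusted p = 0.204), where 22.5% of all tested genes passed that limit. DESeq2 called these 2 (adjusted p = 0.0403 and 0.0416) and 268 of the 1776 genes to which it gave an adjusted p, which leave out the other 4 members, and the fit without a filter on low counts called Sult1d1. With the length slope as covariate the difference for Sult1d1 was 0.23 in log2 units, against 1.47 without it. With the length trend removed the difference for Sult1a1 was 0.24 (adjusted p = 0.655), against 0.81.

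The order of the 4 group means differed among the 6 genes. Sult1a1, Sult1c2 and Sult1e1 ran from wild type females to knockout females and then to the male groups, with the male groups overlapping and the step from female to male apart. Sult1b1 and Sult1d1 ran from wild type females to wild type males, knockout males and knockout females. For Sult1d1 only the first step was apart, and for Sult1b1 all neighbouring groups overlapped. Sult5a1 began with wild type males and ended with knockout females, with all neighbours overlapping.

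The genes most like each member were sought among 10789 genes by Pearson's r of log2 CPM over the 12 libraries, as a description. Closest to Sult1a1 were Gm22146 (r = 0.99), Cyp39a1 (0.98), a P450 of oxysterol hydroxylation, and the glutathione transferase Gstt3 (0.98). Closest to Sult1e1 were Acnat2 (0.97), Slc22a27 (0.96) and Enpep (0.96), and closest to Sult1c2 were Fam89a (0.97), Serpinb8 (0.97) and the lysosomal lipase gene Lipa (0.96). The libraries share sex, so r for these 3 genes includes the step between female and male libraries. Closest to Sult1d1 were L3hypdh (0.99), Mtarc1 (0.98) and Klhl7 (0.98), and among the closest to Sult1b1 were AI182371 (0.98) and Ssu72 (0.97). Sult5a1 had no gene above 0.83, which was Tmub1, followed by Igtp (0.82) and Orc2 (0.79). On deviations from group means, which leave out sex and line, Memo1 (0.99) was closest to Sult1d1.

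Genes of PAPS supply and of sulfate and sulfur handling did not move as 1 group in knockout females. Of 13 tested of 15 listed, 2 were higher and 3 lower, and the median log2 fold change was -0.33, against 0.05 over all genes tested. In this and the next 5 lists, counts in females stand beside 17.7% higher and 18.8% lower among all tested genes, 36.5% in all. Papss1, a synthase of PAPS, was higher (6.58 to 11.4 CPM, 0.79 ± 0.24, adjusted p = 0.0257). The mitochondrial sulfurtransferase Tst was lower (515 to 335 CPM, -0.62 ± 0.17, adjusted p = 0.0192), and so was Bpnt1, which breaks down the spent cofactor (57.6 to 37.4 CPM, -0.62 ± 0.18, adjusted p = 0.0199). In this and the next 5 lists no gene was called in males, and none of the female calls was made with the length slope as covariate or without replicate 2 of either female group.

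Most of the other cytosolic sulfotransferases tested were lower in males. Of 9 tested of 16 listed, 8 were lower in males in wild type mice, and 7 were lower and 1 higher in knockout mice. For 7 of the 9, at most 3 counts were found over each male group. These 7 passed the filter on low counts through the female libraries alone, so their direction between the sexes was fixed beforehand. The count of genes lower in males is therefore no evidence about the family. Among all tested genes 2.39% were lower in males in wild type and 2.45% in knockout mice (4.49% and 5.4% called in either direction). Sult3a1 had 117235 counts over the 3 wild type female libraries and 1 over the 3 male ones. Sult2a1, which acts on steroids and bile acids, had 12569 counts in wild type females and 0 in wild type males, which is at least 4428-fold lower when the male group is given 3 counts. For Sult3a2, with 0 counts in all male libraries, males were at least 7727-fold lower in wild type and 3108-fold lower in knockout mice. In knockout females 5 of the 9 were lower and 0 higher, among them Sult2a7 (14.3 to 1.39 CPM, -3.36 ± 0.57, adjusted p = 0.0132), Sult2a5 (35.9 to 12.8 CPM, -1.49 ± 0.27, adjusted p = 0.0139) and Sult3a1 (2309 to 922 CPM, -1.32 ± 0.30, adjusted p = 0.0142). Members of this family resemble each other and the program that counted the reads is unknown here, so their values are uncertain where reads could be split between copies.

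Sulfatases, which remove sulfate groups, were listed together with factors that modify them. Of 10 tested of 13 listed, 5 were higher and 1 lower in knockout females (median 0.77), which is 6 called where the share over all genes was 36.5%. Among the higher genes, Sgsh (2.76 to 6.72 CPM, 1.28 ± 0.32) and Arsa (6.84 to 16.7 CPM, 1.28 ± 0.36) encode lysosomal enzymes. With the length slope as covariate Arsa turned sign (-0.28). Steroid sulfatase was among the listed genes, and no result for it is given here.

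Of 18 tested regulators linked to liver sulfotransferase genes, 7 were higher and 2 lower in knockout females (median 0.48). They include Stat5b, the growth hormone signal transducer (28.1 to 59.3 CPM, 1.08 ± 0.22), its antagonist Bcl6 (3.81 to 12.0 CPM, 1.66 ± 0.41) and the nuclear receptor partner Rxra (136 to 450 CPM, 1.72 ± 0.42). Rxra turned to -0.15 with the length slope as covariate. Between the sexes, Cux2, a female-biased repressor, was at 27.9 CPM in wild type females and 0.106 CPM in wild type males (adjusted p = 6.88e-07; 2.51e-07 in knockout mice). Esr1, the estrogen receptor, was lower in males in wild type (-1.66 ± 0.31) and in knockout mice (-1.58 ± 0.31), and Bcl6 was higher in wild type males (2.21 ± 0.41).

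Of 11 tested genes of estrogen and thyroid hormone metabolism, 1 was higher and 3 lower in knockout females (median -0.29), so 4 of 11 were called, near the share over all genes. Hsd17b11, a steroid dehydrogenase of lipid droplets, was higher (136 to 327 CPM, 1.26 ± 0.16, adjusted p = 0.0087). Hsd17b10 was among the lower genes (238 to 113 CPM, -1.08 ± 0.26, adjusted p = 0.0143). Srd5a1, a steroid reductase, was higher in males in both lines (1.20 ± 0.19 in wild type, 1.61 ± 0.20 in knockout).

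Of 12 transporters that take up substrates or export conjugates, 3 were higher and 3 lower in knockout females (median 0.37). The canalicular exporter Abcc2 went from 107 to 284 CPM (1.41 ± 0.34) and turned to -0.11 with the length slope as covariate. The basolateral exporter Abcc3 went from 148 to 269 CPM (0.86 ± 0.24), and Abcg2, an exporter of sulfate conjugates, from 38.7 to 22.0 CPM (-0.81 ± 0.20). Abcg2 was higher in males in both lines (1.44 ± 0.20 in wild type, 2.08 ± 0.20 in knockout) and the uptake carrier Slco1a4 was lower (-2.39 ± 0.26 and -1.79 ± 0.26).

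**Figure D4:**
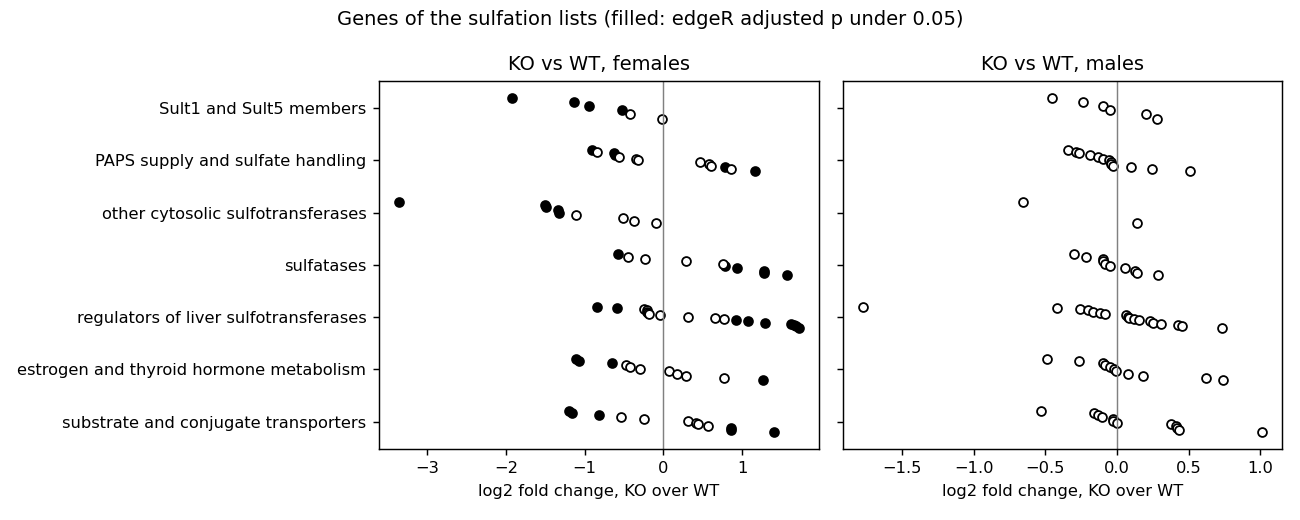
Log2 fold change of knockout over wild type (horizontal axis) for the 6 genes and for 6 lists around sulfation, females left and males right. Points are genes, and filled points have an edgeR adjusted p under 0.05. Filled points lie on both sides of 0 in females, except for the 6 genes and the other sulfotransferases, where they lie below 0, and there are none in males. The male panel leaves out 7 sulfotransferases with at most 3 counts over each male group.

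Some markers of other liver cells differed between the female groups, where 36.5% of all tested genes were called. Of 7 Kupffer cell and macrophage markers 4 were higher in knockout females, with a summed level of 109 to 159.1 CPM in wild type and 158.7 to 186 CPM in knockout libraries, which overlap. Of 7 endothelial markers 3 were higher (132 to 161 against 184 to 232 CPM). Cholangiocyte markers had 1 higher and 2 lower of 6 tested (43.2 to 51.2 against 22.9 to 34.7 CPM). Hepatocyte markers had 1 of 7 higher, at 82526 to 110424 CPM in wild type and 98157 to 98596 CPM in knockout females, so the labelled tissue holds its defining markers. Stellate cell markers had 2 higher and 1 lower of 7, lymphocyte and neutrophil markers 1 higher of 3 tested, and erythroid markers 0 of 5 (441 to 1042 against 235 to 597 CPM). Of intestinal markers 1 of 2 tested was lower, as was the 1 tested marker of pancreas and adipose tissue, and 4 of 5 kidney markers, Umod, Kap and Slc12a1 among them, were at 0 in all libraries. The markers had 17 calls in females in all, against 12 with the length trend removed, 1 with the length slope as covariate and 0 without replicate 2 of either female group. The part of these cells in the levels of the 6 genes was not tested.

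Of the genes within 250 kb of the chromosome 5 cluster, Ugt2a3, a glucuronosyltransferase, was the one called in knockout females besides the cluster genes themselves (-0.57, adjusted p = 0.0355). Each cluster gene had 8 tested neighbours, of which 3 were lower and 0 higher, namely Ugt2a3 and the other cluster genes. These and the next counts stand beside 17.7% higher and 18.8% lower among all tested genes. Sult1a1 had 22 tested neighbours, 4 higher and 2 lower, Sult5a1 had 13, 2 higher and 2 lower, and Sult1c2 had 1, not called. In males none of these neighbours was called.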

How the data were processed

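Per the labels' protocols, RNA from homogenised liver was poly(A)-selected and sequenced after random-hexamer priming. The table the authors deposited holds raw counts per gene, 1 column per library, and columns were matched to samples by a library number found in both. The table's gene length, in bases, was used as deposited. Per the submitters' processing notes, HISAT2 2.0.5, DESeq2 and mm39 were used, with no role stated. No counting program or strand setting is given in the sources used here.

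Counts were tested with edgeR 4.0.16 (R 4.3.3): filterByExpr, which kept 14003 of 56748 genes holding 99.9% of counts, TMM scaling, 1 mean per group over all 12 libraries and the quasi-likelihood F test (8 residual degrees of freedom). P-values were adjusted by Benjamini-Hochberg over all genes tested in each of 6 contrasts, and called at an adjusted p under 0.05. Standard errors are approximate, from the log2 fold change and its F statistic. The biological coefficient of variation was 25.9%. Levels are CPM after TMM scaling, with a prior count of 2 for log2 CPM. The length slope is that of a library's log2 CPM deviation on log2 gene length over 9363 genes with mean log2 CPM above 2. The labels call the samples biological replicates, and no 2 replicates agreed within sampling noise (14.9 to 136 chi-square units per degree of freedom). The script was tested on simulated data.

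The 6 genes, the lists and the tests were chosen with earlier results of these data known. Besides the 6 genes, the text names Cyp2e1, up to 3 called genes of smallest adjusted p per list and contrast, the 3 genes most like each member and called neighbours; a few genes that qualify are not reported here. DESeq2 1.42.0, other size factors, no filter, a replicate block, length corrections, the compared groups alone and 12 fits without 1 library were alternatives. The intervals of log2 fold changes were built from the edgeR standard errors, so they include the spread between libraries. Floors built on counts cover counting error only.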

Additional observations from a re-analysis of the deposited data

How the results depend on the processing

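The sex differences of Sult1a1, Sult1c2 and Sult1e1 kept their direction and their call under all 20 alternatives in both lines, and the count of members called between the sexes was 3 to 4 in wild type mice and 3 in knockout mice over the 12 fits without 1 library. In knockout against wild type females the count of 4 was 3 without a filter on low counts, 1 with a replicate block, 0 with the length slope in the model, 0 with block and slope together and 1 with the length trend removed, and it ran from 0 to 4 without 1 library. As the mean of both sexes the count of 1 was 2 without a filter on low counts, 0 with the block, 0 with the slope and 0 with both, and it ran from 0 to 2 without 1 library. For the difference between the sexes the count of 0 was 2 by DESeq2 and 1 without the filter. In males it was 0 under each alternative. The count over all genes in females was 5116, against 3365 with the block, 10 with the slope and 1 with both, 4264 with the trend removed and 4 to 5993 without 1 library. The replicate numbers were not taken to pair the samples: 4 of 18 same-numbered pairs had a correlation of deviations over 0.1 (range -0.80 to 0.45), and 1 of 12 libraries correlated best with its own number. With the block the female calls of Sult1b1, Sult1e1 and Sult1a1 were not made (adjusted p = 0.0636, 0.0866 and 0.0697), nor was that of Sult1d1 as the mean of both sexes (-1.20, adjusted p = 0.0707).

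Values that changed sign were these. With the slope in the model, in females, Sult1b1 was 0.24 and Sult1c2 0.28 (0.23 and 0.27 with the block added), and with the trend removed Sult1a1 was 0.11 and Sult1c2 0.49. In males Sult1b1 was 0.13 with the slope, 0.13 with slope and block and 0.022 with the trend removed, and Sult1e1 was 0.00085 with the block and 0.0013 with block and slope. As the mean of both sexes Sult1b1 was 0.18 with the slope and 0.18 with both, and Sult1a1 was 0.23 with the trend removed. For the difference between the sexes Sult1b1 was -0.10 with the slope and -0.095 with both, and Sult1c2 was -0.035, -0.024 and, with the trend removed, -0.19. Between the sexes Sult1b1 in wild type was 0.35 with the slope and 0.35 with both, and Sult1d1 in knockout mice was -0.39 and -0.37. Without 1 library at a time, Sult1c2 in females ran from -0.13 to 0.069. In males Sult1b1 ran from -0.29 to 0.28, Sult1e1 from -0.58 to 0.75 and Sult5a1 from -0.44 to 0.089. The difference between the sexes for Sult5a1 ran from -0.13 to 0.51. Between the sexes in wild type, Sult1b1 ran from -0.44 to 0.11 and Sult5a1 from -0.11 to 0.44, and in knockout mice Sult1d1 ran from -0.20 to 0.55. Why these values changed was not tested. The low counts of Sult1e1 in males, 4 to 24 per library, limit its precision there. The list and marker counts without replicate 2 of a female group and with length corrections were chosen after seeing the data.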
